A study of Homo sapiens with 7 samples.

Results

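The genes described here are 37 members of the ATF4 program and of serine and one-carbon metabolism, out of 63655 genes in a deposited table. They were picked by symbol, on chromosomes 1 to 22 or X, and all 37 were found and had been tested by the authors. RNA had been sequenced from HEK293, an established human embryonic kidney line, whose cells carried FLAG-HA tagged CNBP in every sample. The labels give 4 CNBP knockdown and 3 control knockdown samples, and the series title names a role of CNBP in translation. CNBP is a small protein with CCHC zinc knuckles and an affinity for G-rich RNA. The table holds 1 pooled FPKM (fragments per kilobase of transcript, scaled for library size) for each of 2 conditions, headed siRNA and OE. The siRNA condition is read as CNBP knockdown from its heading and the series design alone, and OE is explained by no label. If OE cells made extra CNBP, every difference combines that with the knockdown. No value per sample was analysed here, so no SD, n or depth can be given; the spread between replicates is reflected in the q-values alone. The labels number the knockdown samples by pairs of numbers, without giving their meaning, and the control samples by single numbers. Whether samples were separate cultures is not said, so that spread may be technical.

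ATF4 is a transcription factor of the integrated stress response. When a kinase phosphorylates the initiation factor eIF2, most translation slows, while the ATF4 mRNA, which carries upstream reading frames, is translated more. ATF4 then pairs with C/EBP proteins at composite promoter elements and switches on genes for amino acid supply, among them those that make serine and pass its carbon into the folate cycle. Folate carries single carbons to purine and thymidylate synthesis and to methionine, and homocysteine left over from methylation can be turned into cysteine by transsulfuration.

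Promoters were searched for the core of that composite element, TGATGNAA, on both strands, in the 250 bases upstream of each start in a RefSeq table of build GRCh38.p14. Of 31 members with an entry, 7 held the motif at 1 or more starts (22.6%), against 286 of 11068 tested genes matched by symbol (2.58%) and 1104 of all 35116 promoters (3.14%). A match is a description of these letters and is no evidence of binding. The promoters of the 4 matching members with the largest change are printed because they show the element in genes that differ in direction; the motif, or its reverse complement TTNCATCA, is in capitals.
ATF3 (chr1:212565157-212565406, plus strand): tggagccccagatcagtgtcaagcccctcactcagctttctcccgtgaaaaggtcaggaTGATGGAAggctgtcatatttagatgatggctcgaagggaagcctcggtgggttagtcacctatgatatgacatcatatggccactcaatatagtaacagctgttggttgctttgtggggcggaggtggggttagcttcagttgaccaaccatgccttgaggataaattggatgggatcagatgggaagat
JDP2 (chr14:75427772-75428021, plus strand): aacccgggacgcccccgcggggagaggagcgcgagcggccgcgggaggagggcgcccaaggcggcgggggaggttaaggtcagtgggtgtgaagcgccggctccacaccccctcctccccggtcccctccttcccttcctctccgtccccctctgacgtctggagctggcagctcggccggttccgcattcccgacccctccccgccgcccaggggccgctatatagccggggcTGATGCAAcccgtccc
CHAC1 (chr15:40953221-40953470, plus strand): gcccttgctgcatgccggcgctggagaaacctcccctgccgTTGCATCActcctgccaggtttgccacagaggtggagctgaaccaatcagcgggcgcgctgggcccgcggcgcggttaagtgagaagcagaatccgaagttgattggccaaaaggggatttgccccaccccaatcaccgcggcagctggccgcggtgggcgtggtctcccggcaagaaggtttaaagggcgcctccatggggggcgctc
PPP1R15B (chr1:204411818-204412067, minus strand): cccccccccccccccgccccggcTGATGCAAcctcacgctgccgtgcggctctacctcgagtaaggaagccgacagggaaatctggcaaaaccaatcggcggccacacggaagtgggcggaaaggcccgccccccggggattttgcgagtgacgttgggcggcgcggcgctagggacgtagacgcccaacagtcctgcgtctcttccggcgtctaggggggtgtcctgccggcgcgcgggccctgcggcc

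In ATF3 the match began 191 bases before the listed start, in JDP2 16, in CHAC1 209 and in PPP1R15B 227. The other matching members are shown by a short stretch around the motif, again in capitals, because ASNS, CEBPG and MTHFD1L share the core with different flanks.
ASNS: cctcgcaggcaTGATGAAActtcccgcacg
CEBPG: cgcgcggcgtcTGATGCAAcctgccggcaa
MTHFD1L: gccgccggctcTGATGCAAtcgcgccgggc

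The ASNS match lay on chromosome 7 at 97872469 to 97872476, the CEBPG match on chromosome 19 at 33374071 to 33374078 and the MTHFD1L match on chromosome 6 at 150866357 to 150866364, all in GRCh38.p14. The 7 members with a match had a median change of -0.12 and 4 of them a lower value in siRNA. The 24 without one had a median change of -0.14 and 16 a lower value. Change means log2((siRNA FPKM + 1)/(OE FPKM + 1)) throughout, a scale on which changes of low genes are understated.

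CBS was the single member that passed the test, and it fell. Cystathionine beta-synthase, its product, starts transsulfuration by joining homocysteine to serine. CBS (ENSG00000160200, chromosome 21, 44473301 to 44497053, hg19) stood at 27.5 FPKM in siRNA, against 48.5 FPKM in OE. This is 1.76-fold lower, a change of -0.80, with q = 0.0218 in the authors' deposited table. Of all 24822 tested genes 0.782% were called lower at a q-value under 0.05 and 0.572% higher, while of the 37 members 1 was called lower and 0 higher by Cuffdiff. CNBP itself stood at 45.5 FPKM in siRNA and 579.8 FPKM in OE.

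Below that threshold the members leaned to lower values. In siRNA 25 of 37 had a lower value, 67.6%, against 51.3% of all tested genes. Their median change was -0.16, and that of all tested genes -0.01. Counting the unadjusted p-values below 0.05 of the authors' deposited table, there were 8 lower members (21.6%), beside 6.41% of tested genes, and 2 higher members (5.41%), beside 4.51%. The 8 were CEBPB, NUPR1, TRIB3, PCK2, PYCR1, PHGDH, PSPH and CBS, and the 2 were ATF3 and MAT2A. Among tested coding genes that average 1 FPKM or more, a floor that every member passed, the shares were 6.53% lower and 6.82% higher. These are counts without a test of the list, and genes are not replicates. The members were also chosen with earlier results of these data known, so the lean only describes this list.

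**Figure D1:**
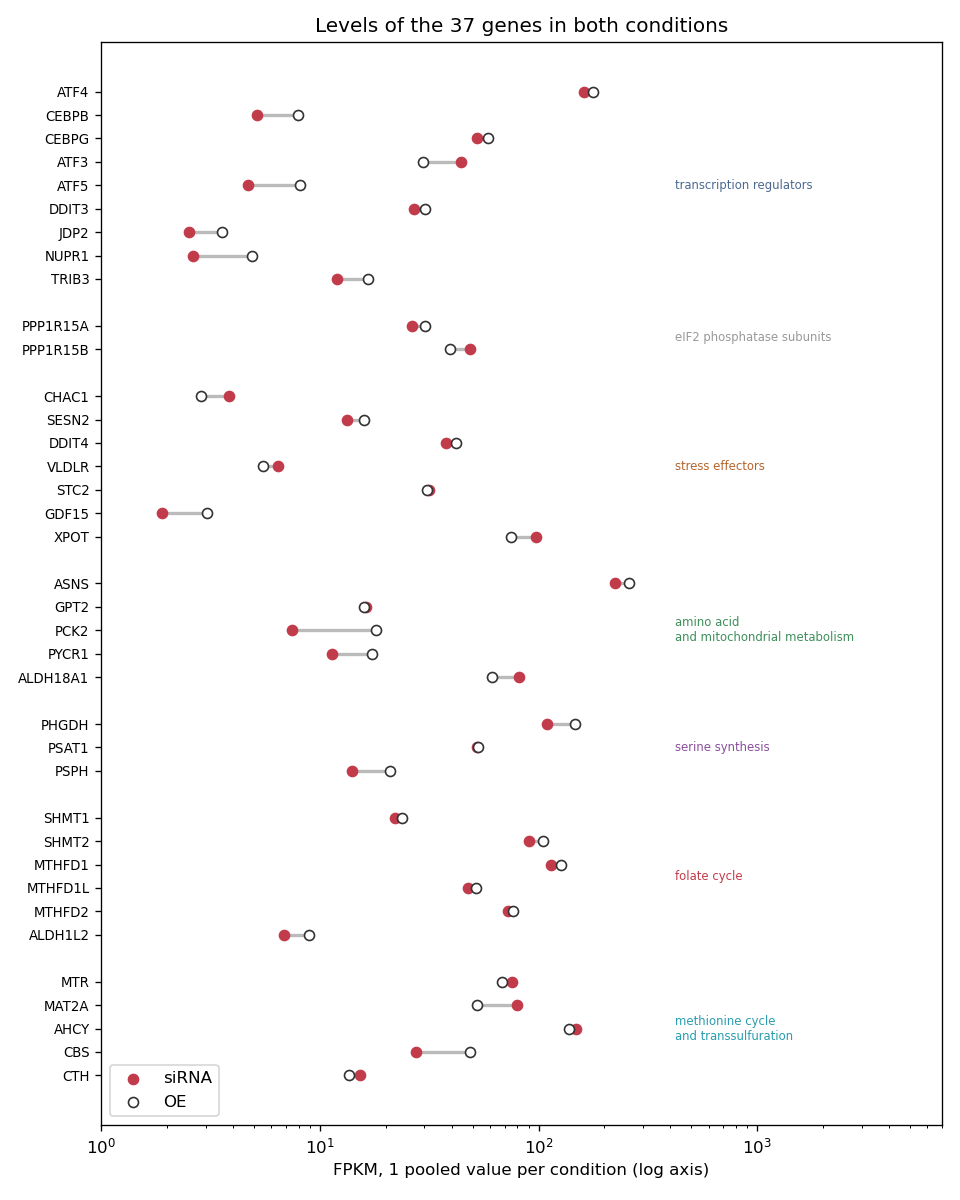
FPKM of each of the 37 genes on a log axis, as 1 pooled value per condition, siRNA filled and OE open, joined by a line and grouped by role. ASNS lies highest, at 223 FPKM in siRNA and 258 FPKM in OE, and GDF15 lowest in siRNA, at 1.90 FPKM against 3.04 FPKM in OE.

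Levels spanned a wide range. Compared per length, 5 members averaged at least 100 FPKM over both conditions and 8 stayed under 10 FPKM. ASNS, asparagine synthetase, ranked above 97.7% of tested genes by its mean, and ATF4 above 96.9%. JDP2, NUPR1, CHAC1 and GDF15 lay lower, above 31.3% to 39.5% of tested genes. By mean level ASNS and ATF4 came first, followed by AHCY, PHGDH and MTHFD1, with several stress-induced genes far below them.

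The transcription regulators had 8 of 9 members at a lower value, with a median change of -0.37 and no call. ATF4 (ENSG00000128272, chromosome 22, 39915700 to 39918691, hg19) was at 161 FPKM in siRNA and 178 FPKM in OE, q = 0.999 in the authors' deposited table. Its own mRNA was thus within 1.11-fold between the conditions, and the table holds no protein or translation measurement. NUPR1, a small stress-induced chromatin protein, was at 2.62 FPKM in siRNA and 4.90 FPKM in OE, 1.87-fold lower with q = 0.134 in the authors' deposited table. CEBPB, a bZIP partner of ATF4, was at 5.16 FPKM in siRNA and 7.97 FPKM in OE, with q = 0.159 in the authors' deposited table.

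TRIB3, a pseudokinase that restrains ATF4, stood at 12.0 FPKM in siRNA and 16.7 FPKM in OE, with q = 0.224 in the authors' deposited table. ATF5, a bZIP factor under similar translational control, was at 4.68 FPKM in siRNA and 8.14 FPKM in OE, with q = 0.898 in the authors' deposited table. Both stood lower in siRNA without a call. ATF5 shares its locus entry with NUP62, listed at 74.5 FPKM in siRNA and 64.6 FPKM in OE. JDP2, a bZIP repressor, was at 2.52 FPKM in siRNA and 3.56 FPKM in OE. CEBPG, another C/EBP protein in the set, was at 52.5 FPKM in siRNA and 58.9 FPKM in OE. Neither JDP2 nor CEBPG passed the test. DDIT3, which encodes the stress factor CHOP, was at 26.9 FPKM in siRNA and 30.1 FPKM in OE. Its locus entry also holds MARS, on the opposite strand, listed at 397 FPKM in siRNA and 390 FPKM in OE. How reads were divided between DDIT3 and MARS was not tested.

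ATF3, a stress-induced bZIP factor, was the exception, at 44.3 FPKM in siRNA and 29.7 FPKM in OE. It was 1.49-fold higher with an unadjusted p-value of 0.035 and q = 0.383 in the authors' deposited table. ATF3 and CEBPB, each responsive to ATF4, thus differed in the sign of their change, and neither passed the test.

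The eIF2 phosphatase subunits pointed opposite ways. PPP1R15A, the stress-induced subunit GADD34 that reverses eIF2 phosphorylation, was at 26.4 FPKM in siRNA and 30.4 FPKM in OE. PPP1R15B, its constitutive counterpart, was at 48.7 FPKM in siRNA and 39.5 FPKM in OE, with q = 0.595 in the authors' deposited table.

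Stress effectors showed no common direction. Of 7, 4 had a higher and 3 a lower value in siRNA, the median change was 0.03 and none reached an unadjusted p-value under 0.05. XPOT, the nuclear exporter of tRNA, was at 97.2 FPKM in siRNA and 74.6 FPKM in OE. CHAC1, which degrades glutathione, was at 3.83 FPKM in siRNA and 2.85 FPKM in OE. VLDLR, a lipoprotein receptor, was at 6.43 FPKM in siRNA and 5.47 FPKM in OE.

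STC2, a secreted glycoprotein, was nearly level at 31.5 FPKM in siRNA and 30.8 FPKM in OE. SESN2, a leucine sensor upstream of mTORC1, was at 13.4 FPKM in siRNA and 15.9 FPKM in OE. DDIT4, an mTORC1 inhibitor, was at 37.6 FPKM in siRNA and 42.1 FPKM in OE. Both regulators of mTORC1 had the lower value in siRNA, and neither was called. DDIT4 shares its locus entry with an antisense gene, RP11-442H21.2, listed above it at 51.0 FPKM in siRNA and 45.9 FPKM in OE. That gene had the higher value in siRNA, and how reads of the pair were divided was not tested. GDF15, a secreted stress hormone, was at 1.90 FPKM in siRNA and 3.04 FPKM in OE, 1.602-fold lower with q = 0.670 in the authors' deposited table.

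Enzymes of amino acid and mitochondrial metabolism held the widest spread. PCK2, the mitochondrial phosphoenolpyruvate carboxykinase, was at 7.49 FPKM in siRNA and 18.05 FPKM in OE. This was a 2.41-fold lower value, the widest gap among the 37, yet q was 0.213 in the authors' deposited table, so the narrower gap of CBS was called and that of PCK2 was not. PCK2 shares its locus entry with DCAF11, on the same strand, at 10.9 FPKM in siRNA and 15.2 FPKM in OE. PYCR1, which completes proline synthesis, was at 11.4 FPKM in siRNA and 17.3 FPKM in OE, 1.52-fold lower with q = 0.220 in the authors' deposited table.

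An antisense gene at the PYCR1 locus, RP11-498C9.13, had almost the same values, 10.97 FPKM in siRNA and 16.7 FPKM in OE. How strand was handled in the counting is not given in the sources used here, so reads of the pair may be divided between them. ALDH18A1, which makes the precursor of proline one step earlier in that route, stood the other way, at 81.3 FPKM in siRNA and 61.3 FPKM in OE with q = 0.475 in the authors' deposited table. GPT2, the mitochondrial alanine transaminase, was at 16.2 FPKM in siRNA and 15.97 FPKM in OE.

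ASNS (ENSG00000070669, chromosome 7, 97481430 to 97501854, hg19), a widely used readout of ATF4, was at 223 FPKM in siRNA and 258 FPKM in OE, q = 0.943 in the authors' deposited table. A processed pseudogene on the opposite strand of that locus, AC079781.5, was listed at 367 FPKM in siRNA and 511 FPKM in OE, above ASNS itself. Which reads gave those values was not tested, so the level of ASNS is uncertain where the annotations overlap. In all, 20 of the 37 members share their locus entry with at least 1 other gene.

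All 3 enzymes of serine synthesis had a lower value in siRNA. PHGDH, which takes 3-phosphoglycerate out of glycolysis in the first step, was at 109.7 FPKM in siRNA and 147 FPKM in OE, 1.34-fold lower with q = 0.256 in the authors' deposited table. PSAT1, the transaminase of the second step, was level at 52.5 FPKM in siRNA and 52.8 FPKM in OE. PSPH, the phosphatase that releases serine, was at 14.0 FPKM in siRNA and 20.8 FPKM in OE, 1.49-fold lower with q = 0.324 in the authors' deposited table. Of the 3 genes PSAT1 had nearly equal values, and the enzymes before and after it had the wider gaps.

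**Figure D2:**
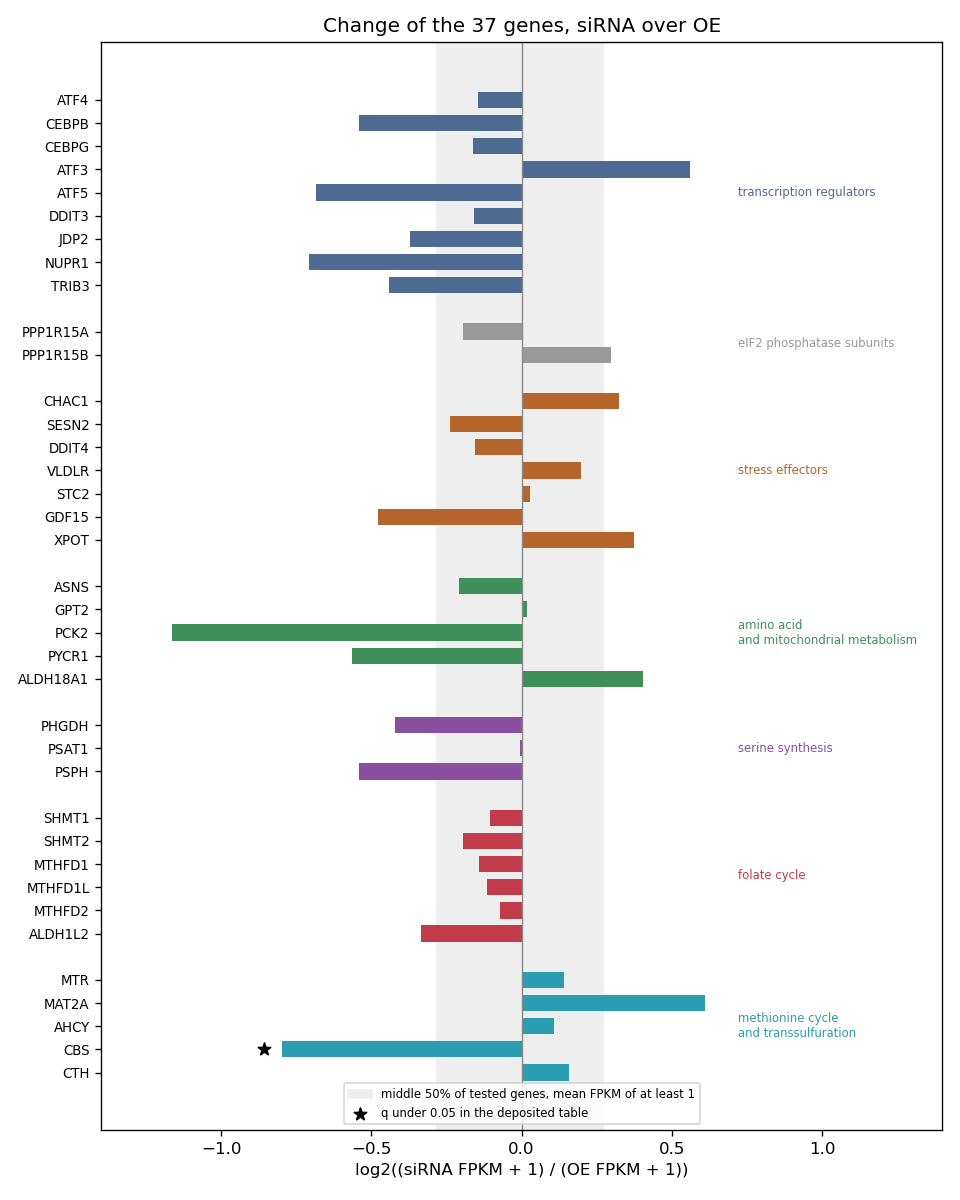
Change of each gene, log2((siRNA FPKM + 1)/(OE FPKM + 1)), as bars coloured by role, over a grey band with the middle 50% of tested genes of mean FPKM at least 1; the star marks a q-value under 0.05. CBS at -0.80 carries the star, PCK2 reaches -1.16 without one, and the 9 serine and folate bars all lie at or below 0.

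All 6 folate cycle enzymes had a lower value in siRNA, with a median change of -0.13 and a range of -0.33 to -0.07, and none was called or had an unadjusted p-value under 0.05. Scaling by the median ratio of genes that average 10 FPKM or more moved that median to -0.21. SHMT1, the cytosolic enzyme that moves a carbon from serine to folate, was at 22.02 FPKM in siRNA and 23.8 FPKM in OE. SHMT2, its mitochondrial counterpart, was at 90.9 FPKM in siRNA and 104 FPKM in OE. MTHFD1, the trifunctional cytosolic folate enzyme, was at 114 FPKM in siRNA and 126 FPKM in OE.

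In mitochondria, MTHFD2, the dehydrogenase and cyclohydrolase, was at 72.4 FPKM in siRNA and 76.1 FPKM in OE. MTHFD1L, which releases formate, was at 47.6 FPKM in siRNA and 51.6 FPKM in OE. ALDH1L2, which oxidises the formyl carbon to carbon dioxide, was at 6.88 FPKM in siRNA and 8.94 FPKM in OE. The 4 mitochondrial enzymes had a median change of -0.16 and the 2 cytosolic ones -0.12, so the compartments stood alike in sign and size, without a test.

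Set side by side, the 24 ATF4 target members outside the folate cycle had a median change of -0.20 and the 6 folate cycle enzymes -0.13. The targets were far more scattered, running from -1.16 to 0.56, and 17 of 24 had a lower value. Their median absolute change was 0.37, against 0.13 in folate enzymes and 0.27 over all tested genes. Of the 24 targets 7 were lower with an unadjusted p-value under 0.05 and 1 was higher, beside 6.41% and 4.51% of all tested genes. The difference between the lists was not tested, because no value per sample was at hand.

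In the methionine cycle and transsulfuration list 4 of 5 genes had a higher value in siRNA and CBS a lower one. The median change was 0.14, no higher value passed the test, and the difference from the folate cycle was not tested. MTR, methionine synthase, which links the cycles, was at 75.3 FPKM in siRNA and 68.1 FPKM in OE. MAT2A, which makes the methyl donor S-adenosylmethionine, was at 80.0 FPKM in siRNA and 52.1 FPKM in OE. This was 1.54-fold higher with an unadjusted p-value of 0.0092 and q = 0.1996 in the authors' deposited table, the widest gap upward among the members. AHCY, which splits S-adenosylhomocysteine, was at 148 FPKM in siRNA and 137 FPKM in OE.

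Beyond CBS, transsulfuration is completed by CTH, cystathionine gamma-lyase. CTH was at 15.2 FPKM in siRNA and 13.6 FPKM in OE with q = 0.999 in the authors' deposited table. Thus the called fall lay at the first of the transsulfuration enzymes and not at both, and the difference between CBS and CTH was not tested.

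Base content went with the changes. In a later annotation, GENCODE 29, the longest coding transcripts of the members had a median GC content of 51.5%, against 48.6% over 12975 tested coding genes of mean FPKM at least 1. Across the 37 members Spearman's rho between GC content and change was -0.54, and across the coding genes -0.44. These values describe genes measured in the same pooled conditions and are given without a p-value. The 8 lower members with an unadjusted p-value under 0.05 had a median GC content of 60.2%.

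In GC content decile 9 all 7 members had a lower value in siRNA, and in decile 4 it was 1 of 5. The median change of coding genes in the same GC content decile was then subtracted. The members' median went from -0.16 to -0.15, and 25 of 37 lay below the median of their decile. The median of the 8 lower members with an unadjusted p-value under 0.05 went from -0.55 to -0.48. What part GC content had in the changes was not tested. CBS, with 59.6% GC, was then at -0.63, PCK2 at -1.001 and NUPR1, with 50.3% GC, at -0.73. ATF4 lay at -0.03. The folate cycle enzymes had a median of -0.18, all 6 below the medians of their deciles, and serine synthesis -0.31. The methionine cycle and transsulfuration list then had a median of 0.02, with MTR at 0.0050. CHAC1, with 62.6% GC, lay 0.55 above its decile.

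**Figure D3:**
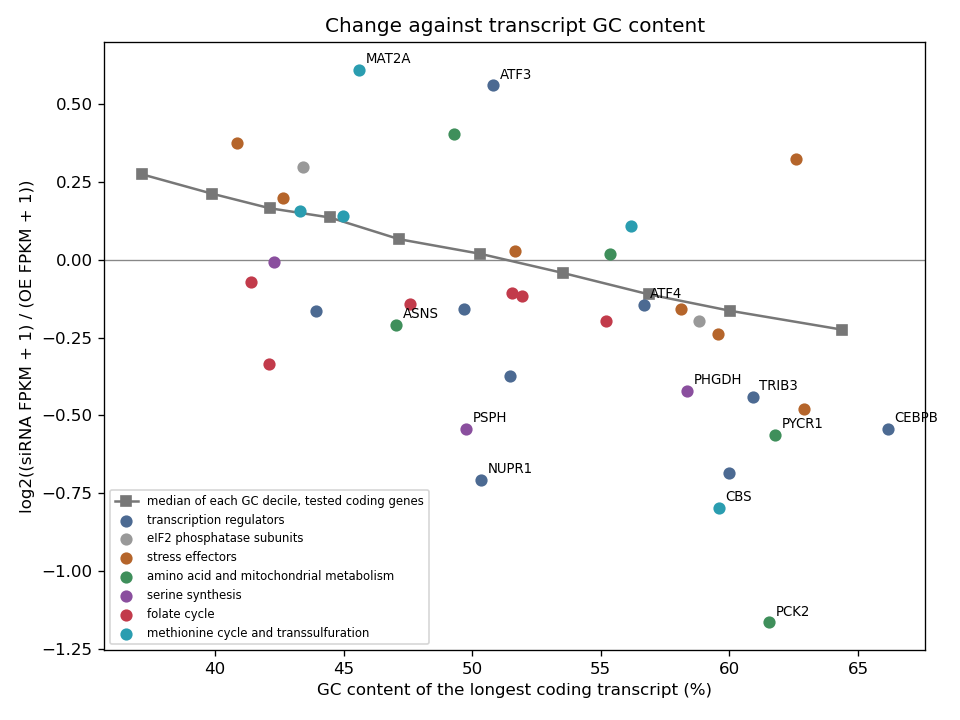
Change of each member against the GC content (%) of its longest coding transcript, coloured by role, with a line through the medians of deciles of tested coding genes. The line falls from 0.28 in the lowest decile to -0.22 in the highest, and PCK2, CBS and NUPR1 lie well below it.

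Other genes of the same pathways were then counted. Of 71 listed genes outside the members, 68 were tested, 1 rose and 1 fell, beside 0.572% higher and 0.782% lower among all tested genes. All 15 genes of the eIF2 kinases, eIF2, eIF2B and their regulators were tested and none was called; 11 had a higher value in siRNA and the median change was 0.12. EIF2S3, a subunit of eIF2, was at 320.4 FPKM in siRNA and 258 FPKM in OE, and GCN1L1, a partner of the kinase GCN2, at 198 FPKM in siRNA and 216 FPKM in OE.

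Of 26 tested further ATF4 targets, amino acid transporters and tRNA synthetases among them, 13 had a higher and 13 a lower value, with a median change of -0.01. INHBE, an inhibin beta chain, rose to 3.56 FPKM in siRNA, against 1.32 FPKM in OE. The authors' deposited table gives q = 0.00791 for this 2.70-fold gap. The members' lean to lower values was thus not seen in this second list of targets, and the difference between the lists was not tested. Both lists were chosen with earlier results of these data known.

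No gene was called among 18 tested other folate and one-carbon genes, where the median change was 0.04. GART, a purine synthesis enzyme that uses formyl folate, was at 237 FPKM in siRNA and 250.2 FPKM in OE. ATIC, which uses it at the end of the same route, was at 184 FPKM in siRNA and 256 FPKM in OE. Among 9 tested other methionine and glutathione genes AHCYL1, a relative of AHCY that binds the inositol trisphosphate receptor, fell to 17.95 FPKM in siRNA, against 34.5 FPKM in OE, with q = 0.0321 in the authors' deposited table.

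**Figure D4:**
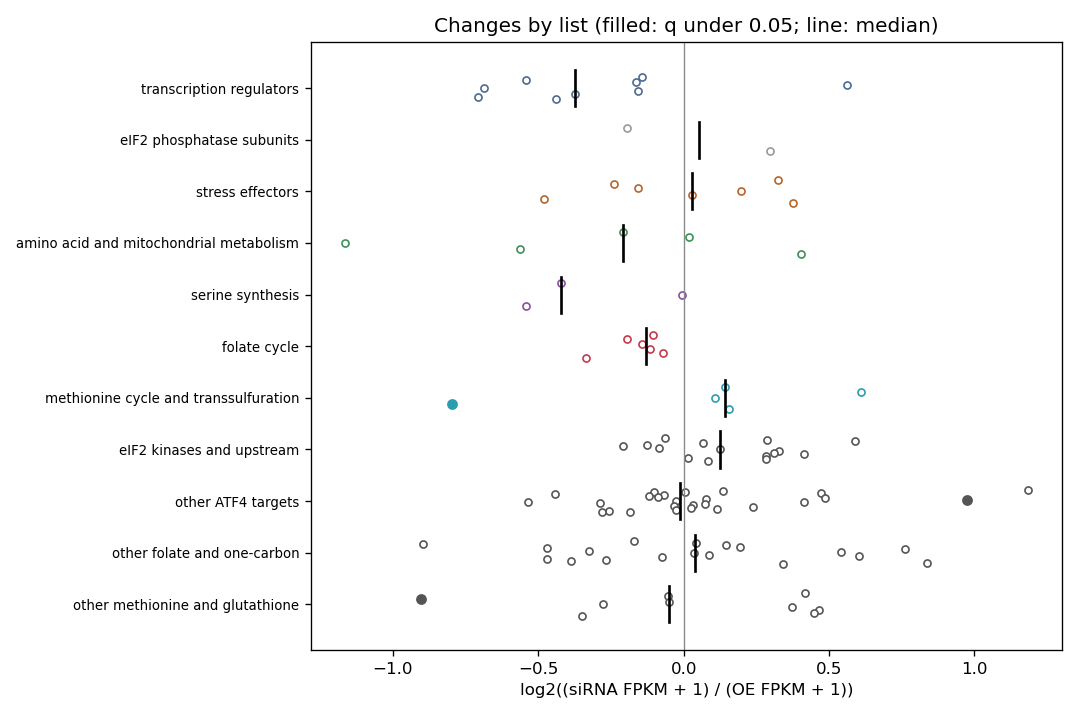
Change of every tested gene, log2((siRNA FPKM + 1)/(OE FPKM + 1)), by list, the 7 lists of members above the 4 lists of other pathway genes; filled points have a q-value under 0.05 and black lines are medians. Medians run from -0.42 for serine synthesis to 0.14 for the methionine cycle and transsulfuration.

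Markers were checked against the labelled line. Of 6 HEK293 markers, VIM was at 413 FPKM in siRNA and 398 FPKM in OE, PAX2 at 3.71 FPKM in siRNA and 3.43 FPKM in OE, and NEFM was not tested, at 0.277 FPKM in siRNA and 0.262 FPKM in OE. INA was at 10.7 FPKM in siRNA and 13.0 FPKM in OE, and LHX1 at 1.99 FPKM in siRNA and 1.37 FPKM in OE. NEFL, a neurofilament gene, was called higher, at 64.7 FPKM in siRNA and 35.9 FPKM in OE. Summed over 3 blood markers the level was 0.626 FPKM in siRNA and 0.856 FPKM in OE, and over 3 hepatocyte markers 0.864 FPKM in siRNA and 2.05 FPKM in OE. Over 4 fibroblast markers it was 8.55 FPKM in siRNA and 11.8 FPKM in OE. Only 1 of the blood, 1 of the hepatocyte and 3 of the fibroblast markers were tested. None of these was called, and the untested ones could not be. Most of the hepatocyte sum came from TF, at 0.766 FPKM in siRNA and 1.91 FPKM in OE, with q = 0.0586 in the authors' deposited table. HBB was listed at 0 in OE. The fibroblast marker COL1A1 was at 4.79 FPKM in siRNA and 6.60 FPKM in OE. DCN was at 2.94 FPKM in siRNA and 4.24 FPKM in OE. Both stood about as high as PAX2 and LHX1. VIM, NEFL and INA stood above COL1A1 and DCN, and NEFM below them. The remaining fibroblast markers were lower, LUM at 0.729 FPKM in siRNA and 0.798 FPKM in OE. COL1A2, not tested, was at 0.0854 FPKM in siRNA and 0.166 FPKM in OE. The levels of these markers alone thus do not settle the cell type. What part the markers of other cell types had in the results was not tested. In pooled bulk RNA, fewer cells with a transcript and less of it per cell cannot be told apart.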

How the data were processed

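TopHat, Cufflinks, Cuffdiff and hg19 are named in the submitters' processing notes. Their versions and settings, the annotation and the strand handling were not given in the sources used here. The authors deposited 1 FPKM per gene and condition, with a p-value and a q-value for their comparison, per the file headers. No spread, depth or left-out sample can be computed from pooled values. The deposited log2 column was not used; changes were recomputed as log2((siRNA FPKM + 1)/(OE FPKM + 1)). A gene was called where the authors deposited a tested status and a q-value under 0.05. Locus starts were printed after adding 1; a locus entry can cover several genes.

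All members are named, with CNBP and, from each other pathway list, the called genes or, where none was called, the 2 with the highest mean FPKM. Members, lists and roles were chosen with earlier results of these data known. GC content came from GENCODE 29, joined by gene ID, for all 37 members and 13923 tested genes. The GC deciles hold tested coding genes of mean FPKM at least 1. Promoters came from a RefSeq table of GRCh38.p14, whose coordinates are not those of hg19. The medians and the Benjamini-Hochberg step were tested on simulated data. Alternatives changed the threshold, pseudocount, FPKM floor, scaling and GC content. Python 3.11.15, numpy 2.4.6, pandas 2.3.3 and matplotlib 3.10.9 were used.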

Additional observations from a re-analysis of the deposited data

How the results depend on the processing

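No member was called higher at any q-value threshold tried (0.01, 0.05, 0.1), against 2 with an unadjusted p-value under 0.05. The count called lower was 1, and it was 0 at a q-value under 0.01, where the CBS call is lost by construction, and 8 with an unadjusted p-value under 0.05. The floor of 1 FPKM and the recomputed adjustment left both counts as they were. The members' median change ran from -0.23 to -0.14 over its 6 alternatives, that of ATF4 target members from -0.28 to -0.16 and that of folate cycle members from -0.21 to -0.12. Scaling by the median ratio of genes that average 10 FPKM or more (1.06) turned the sign of STC2, to -0.0486, and GPT2, to -0.0560, and of no other member. Neither was called. No paired analysis was possible because each condition is 1 pooled value, and for that reason no replicate was left out. Sequencing depth is unknown, and what it limits cannot be stated.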

Other observations

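The genes in this paragraph are no members, and all were chosen after their values were seen. SLC7A11, the cystine transporter and an ATF4 target, was at 7.97 FPKM in siRNA and 2.95 FPKM in OE, a 2.70-fold gap that was not called (q = 0.108 in the authors' deposited table). GCSH, the carrier protein of the glycine cleavage system, was at 29.6 FPKM in siRNA and 16.2 FPKM in OE with q = 0.148 in the authors' deposited table. Both values were higher in siRNA. GGH, which trims folate side chains in lysosomes, was at 43.7 FPKM in siRNA and 29.7 FPKM in OE with q = 0.298 in the authors' deposited table.

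Pseudogenes named after members stood low. ASNSP5 was listed at 3.39 FPKM in siRNA and 9.46 FPKM in OE, and ASNSP1 at 3.65 FPKM in siRNA and 4.08 FPKM in OE. MTHFD2P1 was at 2.27 FPKM in siRNA and 3.13 FPKM in OE, and SHMT1P1 at 0.569 FPKM in siRNA and 2.02 FPKM in OE. ATF4P3 stood the other way, at 1.24 FPKM in siRNA and 0.836 FPKM in OE. ATF4P4 was level at 0.594 FPKM in siRNA and 0.597 FPKM in OE. These were the tested ones, and none was called. How reads were shared between such copies and their parents was not tested.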
